A study of Mus musculus with 10 samples.

Results

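The 9 genes described here, Tagln, Acta2, Cnn1, Myl9, Tpm1, Tpm2, Fn1, Igfbp2 and Ly6a, were selected from the 37991 Ensembl gene identifiers of the deposited table because most of them had higher levels in Bcl10-/- than in Bcl10+/- mouse keratinocytes. Of these, 6 encode parts of the contractile apparatus of smooth muscle and myofibroblasts (Tagln, Acta2, Cnn1, Myl9, Tpm1 and Tpm2). Fn1 encodes fibronectin, Igfbp2 an insulin-like growth factor binding protein and Ly6a the surface antigen Sca-1. Because the genotype comparison chose them, their genotype differences are given as a description, without a test. The comparison of IL-17A with no stimulation was not used in the choice and was tested.

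The libraries came from primary keratinocytes, the main cells of the epidermis, taken from the skin of pups at postnatal days 4 to 5 and carrying the strain label Bcl10tm1Mak. BCL10 is an adaptor protein that links CARD proteins to MALT1 upstream of NF-kB. The 10 libraries comprised 2 of Bcl10-/- cells (knockout) and 3 of Bcl10+/- cells (heterozygous) given recombinant mouse IL-17A at 200 ng/mL for 5 h, and 2 knockout and 3 heterozygous libraries without stimulation. All cells were grown in serum-free keratinocyte medium containing 0.05 mM CaCl2, on wells treated with collagen, and poly(A) RNA was sequenced from 100 ng of total RNA. A library pair with the same genotype and number, 1 treated and 1 not, is called a culture here. The heterozygous cells also carry 1 mutant copy, wild-type cells were not used here, and the labels do not say whether a number stands for an animal, a litter or a well. All p-values therefore rest on the spread among these libraries, a part of which may be technical.

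Smooth muscle and myofibroblasts contract through filaments of alpha-smooth muscle actin (Acta2) and non-muscle or smooth muscle myosin, whose regulatory light chain is Myl9. Tropomyosins (Tpm1, Tpm2), calponin (Cnn1) and transgelin (Tagln) bind along the actin filament. Many genes of this group are activated by serum response factor (SRF) and its MRTF co-activators through a DNA element called the CArG box, and by TGF-beta, which also raises fibronectin. Keratinocytes use non-muscle actin and myosin and lay down fibronectin when they migrate in a wound, so a part of this programme is also known in epidermal cells.

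Levels are FPKM, fragments scaled to transcript length and to the number of mapped fragments. The depth estimated from the smallest steps of the values was 15.9 to 50.0 M fragments, at which 3 fragments in a gene of 1 kb equal 0.0600 to 0.189 FPKM (counting error only). Bcl10 itself was read first. It stood at 0.969 FPKM in the unstimulated library of knockout culture 1 and at 16.4 to 17.0 FPKM in the other 3 libraries labelled knockout, against 16.3 and 18.0 FPKM in the culture labelled heterozygous 1 and 59.5 to 72.3 FPKM in the cultures labelled heterozygous 2 and 3. The Bcl10 level of heterozygous culture 1 thus goes against its label, so the genotype differences of the 8 tested genes are given by label and again without that culture. The 2 libraries of knockout culture 1 also differ from each other in Bcl10, although they are taken as 1 culture here. The labels do not say which stretch of Bcl10 the allele lacks, so its level checks them only in part. The first principal component, 40.5% of the variance, placed the knockout cultures and the culture labelled heterozygous 1 at -18.1 to -13.5 and heterozygous cultures 2 and 3 at 10.2 to 36.2. These sides also carry different library numbers in the labels, 1 to 14 for the first set and 33 to 38 for the second. Library number and this split of the cultures therefore cannot be told apart. Without the culture labelled heterozygous 1, every heterozygous library is numbered 33 to 38 and every knockout library lies within 1 to 14. Calls from that selection cannot tell genotype from library number. In the unstimulated library of knockout culture 1 the 10 highest genes held 12.6% of the summed FPKM, against 8.21% to 8.66% in the other 9 libraries.

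Acta2 (chromosome 19, 34241090 to 34255590, minus strand, GRCm38) had the largest genotype difference of the 8 tested genes on the log2 scale. With IL-17A and without it, in that order, knockout culture 1 had 59.8 and 59.5 FPKM and knockout culture 2 had 27.9 and 31.0 FPKM. In the same order, levels were 20.2 and 20.7 FPKM in the culture labelled heterozygous 1, 4.99 and 5.23 FPKM in heterozygous culture 2, and 7.49 and 7.06 FPKM in heterozygous culture 3. All 4 knockout libraries lay above all 6 heterozygous ones, and the cultures formed 5 separate steps, knockout 1, knockout 2, heterozygous 1, heterozygous 3 and heterozygous 2, with no overlap between neighbours. With IL-17A the knockout mean was 43.9 ± 22.6 FPKM (SD, n = 2) and the heterozygous mean 10.9 ± 8.15 FPKM (SD, n = 3), a difference of 2.03 in mean log2(FPKM + 1). Without stimulation the means were 45.2 ± 20.1 FPKM in knockout and 11.0 ± 8.43 FPKM in heterozygous libraries, a log2 difference of 2.10. In bulk RNA, more cells of a type and more RNA per cell cannot be told apart.

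Myl9 (chromosome 2, 156775420 to 156781658, plus strand) ranked the 5 cultures in the same order as Acta2, at lower FPKM. Knockout culture 1 had 5.68 FPKM with IL-17A and 6.28 FPKM without, and knockout culture 2 had 3.05 and 3.35 FPKM. The same order gave 2.14 and 2.08 FPKM in the culture labelled heterozygous 1, 0.858 and 0.296 FPKM in heterozygous culture 2, and 0.642 and 1.07 FPKM in heterozygous culture 3. Again all knockout libraries were above all heterozygous ones, with knockout culture 1 highest, and only heterozygous cultures 2 and 3 overlapped. The means with IL-17A were 4.37 ± 1.86 FPKM in knockout and 1.21 ± 0.811 FPKM in heterozygous libraries (SD, n = 2 and n = 3), and the log2 difference was 1.29. Without stimulation they were 4.82 ± 2.08 FPKM in knockout and 1.15 ± 0.896 FPKM in heterozygous libraries, with a log2 difference of 1.48.

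The CArG box is the element through which SRF is known to activate actin and myosin light chain genes, so the promoters of these genes were searched for it. RefSeq (GRCm38.p6) gave 7 promoter windows for 6 of the 9 genes, and Tagln, Fn1 and Ly6a had no entry. In the 250 bases before the RefSeq start, searched on both strands, the exact CArG box was present in 1 of the 7 windows and in 1.47% of all 32851 windows. Allowing 1 C or G among the central bases, the shares were 2 of 7 windows and 8.59% of all. Myl9 and Acta2 held these matches, 2 boxes each and are given in 30 bases with the box in capitals and 10 bases on either side, 5′ to 3′ on the strand of the gene. In Myl9 the boxes began 161 bases (exact) and 99 bases (1 central G) before the start. The 30-base stretches that hold them are chr2:156775293-156775322 and chr2:156775355-156775384. In Acta2 the boxes began 84 and 34 bases before the RefSeq start (1 central C and 1 central G). Their 30-base stretches are chr19:34255438-34255467 and chr19:34255388-34255417, minus strand. The GENCODE model of Acta2 starts further upstream, so that by its annotation these boxes lie in the first exon. A match is a description of the letters and not a measured site.
Myl9 box 161 bases upstream: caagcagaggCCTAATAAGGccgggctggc
Myl9 box 99 bases upstream: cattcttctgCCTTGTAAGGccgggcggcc
Acta2 box 84 bases upstream: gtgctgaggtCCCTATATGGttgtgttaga
Acta2 box 34 bases upstream: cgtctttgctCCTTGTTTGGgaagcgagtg

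Tagln (chromosome 9, 45929619 to 45936058, minus strand) encodes transgelin, also called SM22-alpha, an actin-binding protein that is an early smooth muscle marker. It was low in all 3 heterozygous cultures. Knockout culture 1 had 12.0 FPKM with IL-17A and 11.3 FPKM without, and knockout culture 2 had 13.7 and 12.2 FPKM. In the heterozygous libraries the same pairs were 4.53 and 4.78 FPKM in the culture labelled 1, 6.01 and 5.82 FPKM in culture 2, and 4.01 and 3.84 FPKM in culture 3. Unlike Acta2 and Myl9, Tagln was not raised in the culture labelled heterozygous 1, which lay between the other heterozygous cultures, and it was higher in knockout culture 2 than in knockout culture 1. The group means were 12.8 ± 1.16 FPKM in knockout and 4.85 ± 1.04 FPKM in heterozygous libraries with IL-17A (SD, n = 2 and n = 3). Without stimulation they were 11.8 ± 0.632 FPKM in knockout and 4.81 ± 0.991 FPKM in heterozygous libraries. The log2 differences were 1.25 with IL-17A and 1.15 without. The Tagln gene overlaps Pcsk7 on the other strand by 108 bp, and since the strand setting was not given, reads there cannot be assigned; Pcsk7 stood at 5.65 to 6.60 FPKM in knockout and 4.25 to 6.15 FPKM in heterozygous libraries.

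Both tropomyosins were abundant in every library and differed little by genotype. Tpm2 (chromosome 4, 43514711 to 43523765, minus strand) had 84.2 and 86.5 FPKM in knockout culture 1 with and without IL-17A, and 76.6 and 73.3 FPKM in knockout culture 2. Its levels were 73.4 and 77.6 FPKM in the culture labelled heterozygous 1, 52.8 and 56.9 FPKM in heterozygous culture 2, and 58.5 and 58.0 FPKM in heterozygous culture 3. The culture labelled heterozygous 1 overlapped knockout culture 2, and the other heterozygous cultures were lower. The log2 differences between genotypes were 0.39 with IL-17A, from means of 80.4 ± 5.35 FPKM in knockout and 61.6 ± 10.6 FPKM in heterozygous libraries, and 0.32 without, from 79.9 ± 9.36 FPKM in knockout and 64.2 ± 11.7 FPKM in heterozygous libraries.

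Tpm1 (chromosome 9, 67022590 to 67049406, minus strand) had 122 and 147 FPKM in knockout culture 1 with and without IL-17A, and 153 and 144 FPKM in knockout culture 2. Heterozygous libraries had 149 and 142 FPKM in the culture labelled 1, 103 and 117 FPKM in culture 2, and 123 and 126 FPKM in culture 3. From knockout culture 2, the highest on average, through heterozygous 1 and knockout 1 down to heterozygous 3, each culture overlapped the next. The log2 difference was 0.14 with IL-17A, from means of 137 ± 21.9 FPKM in knockout and 125 ± 22.7 FPKM in heterozygous libraries. Without stimulation it was 0.18, from 145 ± 2.04 FPKM in knockout and 128 ± 13.0 FPKM in heterozygous libraries. With IL-17A its sign turned, to -0.02 without knockout culture 2 and to -0.12 when the 2 knockout cultures were set against the culture labelled heterozygous 1 alone. Tpm1 therefore marks the lower edge of the set.

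Cnn1 (chromosome 9, 22099216 to 22109630, plus strand), which encodes the basic calponin of differentiated smooth muscle, was barely detected. It was listed at 0.0759 and 0.0863 FPKM in knockout culture 1 with and without IL-17A, and at 0 in both libraries of knockout culture 2. Its values were 0 and 0.0945 FPKM in the culture labelled heterozygous 1, 0.0347 and 0 FPKM in heterozygous culture 2, and 0 in both libraries of heterozygous culture 3. For this gene 3 fragments equal 0.0219 to 0.0691 FPKM depending on the library, and the 4 values above 0 equal 2.24 to 10.4 fragments. No fold was computed, and with a mean below 1 FPKM Cnn1 was not among the 12054 genes tested; the other 8 genes were.

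Fn1 (chromosome 1, 71585520 to 71653200, minus strand) encodes fibronectin, the matrix protein that cells bind through integrins. Knockout culture 1 had 19.0 FPKM with IL-17A and 16.3 FPKM without, and knockout culture 2 had 17.2 and 18.5 FPKM. Levels were 12.2 and 11.2 FPKM in the culture labelled heterozygous 1, 6.13 and 5.70 FPKM in heterozygous culture 2, and 6.71 and 6.38 FPKM in heterozygous culture 3. The knockout cultures overlapped each other and lay above every heterozygous library, with the culture labelled heterozygous 1 between them and the other heterozygous cultures. The means were 18.1 ± 1.31 FPKM in knockout and 8.33 ± 3.32 FPKM in heterozygous libraries with IL-17A (log2 difference 1.09). Without it they were 17.4 ± 1.50 FPKM in knockout and 7.77 ± 3.02 FPKM in heterozygous libraries (log2 difference 1.12). Fn1 overlaps the antisense gene Apol7d by 364 bp, which reached at most 0.0824 FPKM.

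Igfbp2 (chromosome 1, 72824503 to 72852474, plus strand) encodes a secreted protein that binds insulin-like growth factors. It had 25.3 and 22.3 FPKM in knockout culture 1 with and without IL-17A, and 14.4 and 18.3 FPKM in knockout culture 2. Levels were 15.4 and 19.7 FPKM in the culture labelled heterozygous 1, 4.37 and 4.49 FPKM in heterozygous culture 2, and 3.42 and 3.81 FPKM in heterozygous culture 3. The culture labelled heterozygous 1 overlapped knockout culture 2, so the labelled genotypes overlapped, while heterozygous cultures 2 and 3 were lower than all others. The means were 19.9 ± 7.67 FPKM in knockout and 7.75 ± 6.69 FPKM in heterozygous libraries with IL-17A (log2 difference 1.46). Without stimulation they were 20.3 ± 2.89 FPKM in knockout and 9.34 ± 8.98 FPKM in heterozygous libraries (log2 difference 1.37).

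Ly6a (chromosome 15, 74994877 to 74998031, minus strand) encodes Sca-1, a GPI-anchored surface protein used as a marker of progenitor cells in several mouse tissues. With and without IL-17A it had 72.4 and 75.5 FPKM in knockout culture 1 and 64.5 and 65.2 FPKM in knockout culture 2. Its level was 65.4 and 69.9 FPKM in the culture labelled heterozygous 1, 12.6 and 15.2 FPKM in heterozygous culture 2, and 20.3 and 17.7 FPKM in heterozygous culture 3. The culture labelled heterozygous 1 lay between the knockout cultures, and the means with IL-17A, 68.5 ± 5.63 FPKM in knockout and 32.8 ± 28.5 FPKM in heterozygous libraries, carry a heterozygous SD almost as large as the mean. Without stimulation the means were 70.4 ± 7.25 FPKM in knockout and 34.2 ± 30.9 FPKM in heterozygous libraries. The log2 differences were 1.37 and 1.36. Ly6a has near-identical relatives in the Ly6 cluster, and how reads shared with them were assigned was not given, so its level is uncertain to that extent; the same holds for Acta2 among the muscle actins.

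**Figure D1:**
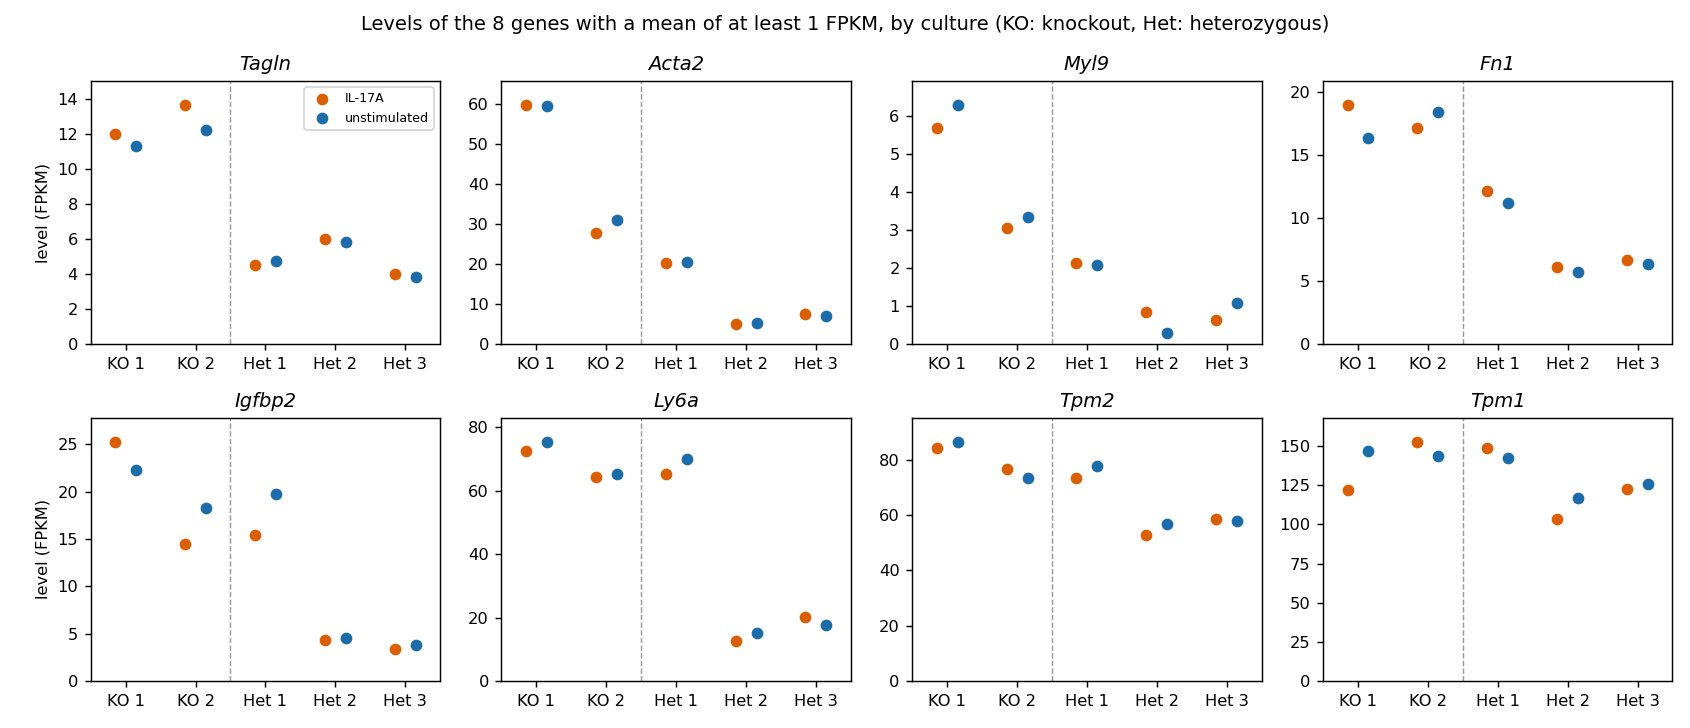
Level in FPKM (vertical axes, each starting at 0) of the 8 tested genes in each culture (horizontal axes), with IL-17A in orange and unstimulated in blue, 1 point per library, and a dashed line between the cultures labelled knockout and heterozygous. Tagln is low in all 3 heterozygous cultures (3.84 to 6.01 FPKM), Acta2, Myl9 and Fn1 fall in steps, and Igfbp2 and Ly6a are as high in the culture labelled heterozygous 1 as in knockout culture 2.

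The 8 tested genes thus showed different patterns across the cultures. In Tagln, Acta2, Myl9 and Fn1, all 4 knockout libraries were above all 6 heterozygous libraries, an arrangement found in 3.09% of the 12054 tested genes. The same 4 genes had all knockout libraries above both libraries of the culture labelled heterozygous 1, as in 8.29% of tested genes. In Acta2, Myl9, Fn1, Tpm2, Igfbp2 and Ly6a, the 6 libraries numbered 1 to 14 were all above the 4 numbered 33 to 38, as in 17.4% of tested genes. These counts come from values that chose the genes and are given as a description. The mean over the 4 knockout libraries was 2.65 times that of the culture labelled heterozygous 1 for Tagln, 2.18 times for Acta2, 2.17 times for Myl9 and 1.52 times for Fn1. For Igfbp2, Ly6a, Tpm2 and Tpm1 the same ratio was 1.14, 1.03, 1.06 and 0.972. Set against heterozygous cultures 2 and 3, the culture labelled heterozygous 1 was 4.37 times their mean for Igfbp2, 4.12 times for Ly6a, 3.30 times for Acta2, 2.95 times for Myl9 and 1.88 times for Fn1, but 0.946 times for Tagln.

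Taken without the culture labelled heterozygous 1, the log2 differences between knockout and heterozygous libraries with IL-17A were 2.56 for Acta2, 2.05 for Igfbp2, 2.03 for Ly6a, 1.57 for Myl9, 1.36 for Fn1, 1.22 for Tagln, 0.52 for Tpm2 and 0.27 for Tpm1. Within the libraries numbered 1 to 14, where the 2 knockout cultures meet the culture labelled heterozygous 1 alone, they were 1.32 for Tagln, 0.98 for Acta2, 0.73 for Myl9, 0.53 for Fn1, 0.29 for Igfbp2, 0.13 for Tpm2, 0.06 for Ly6a and -0.12 for Tpm1. Tagln kept its size in both selections, and Igfbp2 and Ly6a moved most. In the unstimulated libraries without that culture they were 2.63 for Acta2, 2.04 for Igfbp2, 2.03 for Ly6a, 1.78 for Myl9, 1.39 for Fn1, 1.15 for Tagln, 0.46 for Tpm2 and 0.26 for Tpm1. Within the unstimulated libraries numbered 1 to 14 they were 1.15 for Tagln, 1.02 for Acta2, 0.87 for Myl9, 0.59 for Fn1, 0.04 for Tpm2, 0.03 for Igfbp2, 0.03 for Tpm1 and 0.01 for Ly6a. The libraries numbered 33 to 38 are all labelled heterozygous and give no genotype difference of their own. The median over the 8 genes was 1.27 with IL-17A and 1.25 without, beside -0.01 in both conditions over all tested genes.

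**Figure D2:**
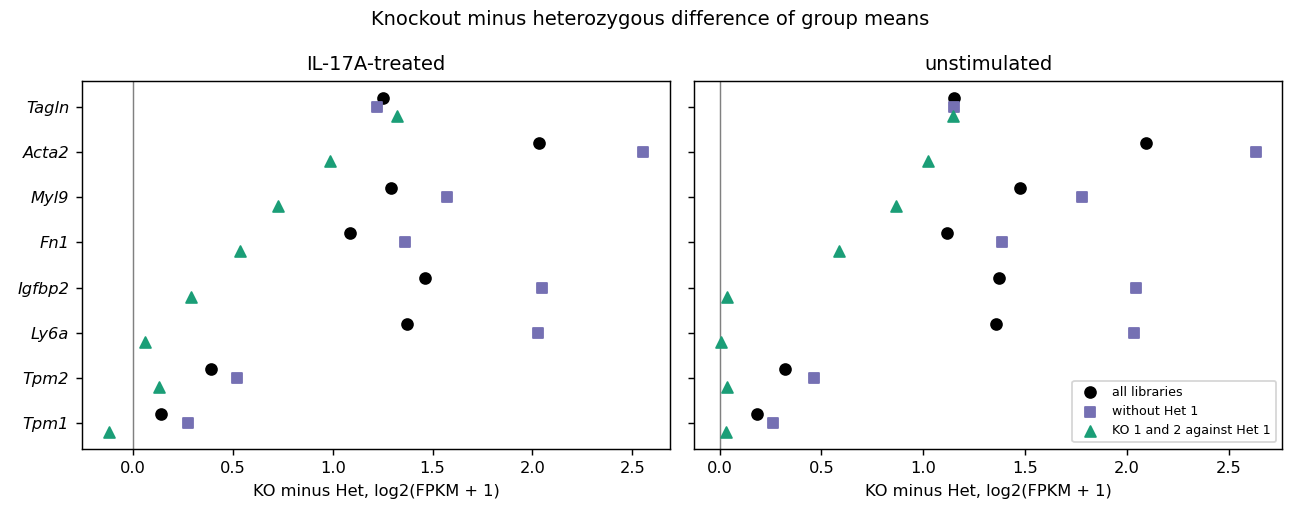
Knockout minus heterozygous difference in mean log2(FPKM + 1) (horizontal axes) of each gene (rows), with IL-17A on the left and unstimulated on the right, from all libraries (circles), without the culture labelled heterozygous 1 (squares) and with knockout cultures 1 and 2 against that culture alone (triangles). The 3 symbols of Tagln lie together between 1.15 and 1.32, while those of Ly6a run between 0.01 and 2.03.

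Among the 10 libraries, Pearson's r between a gene's log2(FPKM + 1) and the mean standardised profile of the other 7 was 0.97 for Acta2, 0.97 for Fn1, 0.96 for Tpm2 and 0.96 for Ly6a, 0.95 for Igfbp2 and 0.93 for Myl9. It was 0.69 for Tpm1 and 0.69 for Tagln. After the group means were taken out, Acta2 had r of 0.98 with Tpm2 and 0.93 with Myl9, while Tagln had negative values with each of the other 7 genes, between -0.41 and -0.06. These are descriptions over libraries that come in pairs from 5 cultures. The genes outside the set whose profile was most like the mean profile of the 8 genes over the 10 libraries were Vsnl1 (r 0.99), Serpine2, Ces2e, Cpped1 and Pfkfb3 (r 0.98 each). Vsnl1, a calcium sensor of neurons, ranged over 10.9 to 12.7 FPKM in knockout and 4.08 to 8.63 FPKM in heterozygous libraries. Serpine2, which encodes the protease inhibitor nexin-1, ranged over 12.7 to 14.2 FPKM in knockout and 5.95 to 11.3 FPKM in heterozygous libraries.

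Markers of other cell types moved with some of these values. The defining fibroblast genes Col1a1, Col1a2, Col3a1 and Pdgfra stood at 10.6, 3.68, 2.77 and 1.59 FPKM in the treated library of knockout culture 2 and at 10.8, 3.68, 2.97 and 1.33 FPKM in its unstimulated library. None of the other 8 libraries exceeded 0.251 FPKM for any of these 4 genes. Summed over the 25 fibroblast and collagen genes, the level was 166 FPKM in each library of knockout culture 2, 29.6 to 33.5 FPKM in knockout culture 1 and 31.0 to 37.6 FPKM in the heterozygous libraries. In 24 of the 25 genes both libraries of knockout culture 2 were above the other 8, and Fap was at 0 everywhere. Only 10 of the 25 reached a mean of 1 FPKM and were tested. All 10 were among the 24, beside 4.6% of all tested genes. Skeletal muscle markers summed to 5.31 to 5.79 FPKM in knockout culture 2 and to 0.541 to 1.23 FPKM elsewhere, with the skeletal muscle actin Acta1 at 2.40 and 2.10 FPKM and Myog, a factor of muscle differentiation, at 2.41 and 2.21 FPKM in knockout culture 2.

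Acta2 and Myl9 were higher in knockout culture 1, where the fibroblast sum lay at the heterozygous level, than in knockout culture 2, by 2.03 and 1.87 times. Tagln was 0.902 times as high in knockout culture 1 as in knockout culture 2, and Fn1 0.993 times. Without knockout culture 2 the log2 differences with IL-17A were 2.57 for Acta2, 1.65 for Myl9, 1.17 for Tagln and 1.16 for Fn1. Of the smooth muscle and pericyte markers, Myh11 reached at most 0.0256 FPKM and Rgs5 at most 0.0131 FPKM in any library, Kcnj8 and Abcc9 were at 0 in all, and the list's sum came almost wholly from Mcam, an adhesion molecule. Mcam stood at 63.0 to 67.9 FPKM in knockout, 62.2 and 63.8 FPKM in the culture labelled heterozygous 1, and 37.7 to 46.9 FPKM in the other heterozygous libraries. With the culture labelled heterozygous 1 left out, Mcam was higher in treated knockout libraries (log2 difference 0.58, adjusted p = 0.0423 by limma). In that selection 3.83% of all tested genes were higher with IL-17A, and Mcam was not called without stimulation. All 5 leukocyte markers were at 0. The endothelial marker Cdh5 reached at most 0.0580 FPKM and Pecam1 at most 1.73 FPKM. Kdr, the most abundant endothelial marker, averaged 4.04 FPKM. Its log2 differences between knockout and heterozygous libraries were -0.40 with IL-17A and -0.37 without. Those of Pecam1 were 0.25 and 0.24, and neither gene was called by label. The endothelial markers summed to 4.40 to 5.13 FPKM in knockout and 5.17 to 6.04 FPKM in heterozygous libraries.

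The 5 melanocyte markers summed to 168 to 180 FPKM in knockout, 188 to 196 FPKM in the culture labelled heterozygous 1, and 315 to 406 FPKM in heterozygous cultures 2 and 3. Their sum was thus highest in the cultures where Acta2, Myl9, Fn1, Tpm2, Igfbp2 and Ly6a were lowest. All 5 had negative differences in both conditions, with median log2 differences of -0.71 with IL-17A and -0.67 without, and none passed the test. Without the culture labelled heterozygous 1, 3 of the 5 were lower in treated knockout libraries (Dct, Mlana and Pmel), beside 2.87% of all tested genes. Pmel was also lower there without stimulation (log2 difference -0.83, adjusted p = 0.0473 by limma), beside 0.664% of all. For the keratinocyte label, the basal keratins Krt5 and Krt14 stood at 4430 to 6426 FPKM and 3723 to 5015 FPKM over all libraries, while Krt15 did not exceed 0.180 FPKM. By label, of 8 tested keratinocyte markers none passed, with medians of 0.24 with IL-17A and 0.15 without, and the 9 on the list summed to 11685 to 12761 FPKM in knockout and 9459 to 12643 FPKM in heterozygous libraries. When the culture labelled heterozygous 1 was left out, the adhesion molecule Epcam was lower in knockout with IL-17A (log2 difference -0.93, adjusted p = 0.0263 by limma) and without (-0.90, adjusted p = 0.0431), and Itgb4, a hemidesmosome integrin, was higher with IL-17A (1.01, adjusted p = 0.0358). Over all tested genes 2.87% were lower and 3.83% higher with IL-17A in that selection, and 0.664% lower without. Genotype and library number coincide in that selection, so its calls cannot tell them apart. The part of these markers in the levels of the 9 genes was not tested.

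**Figure D3:**
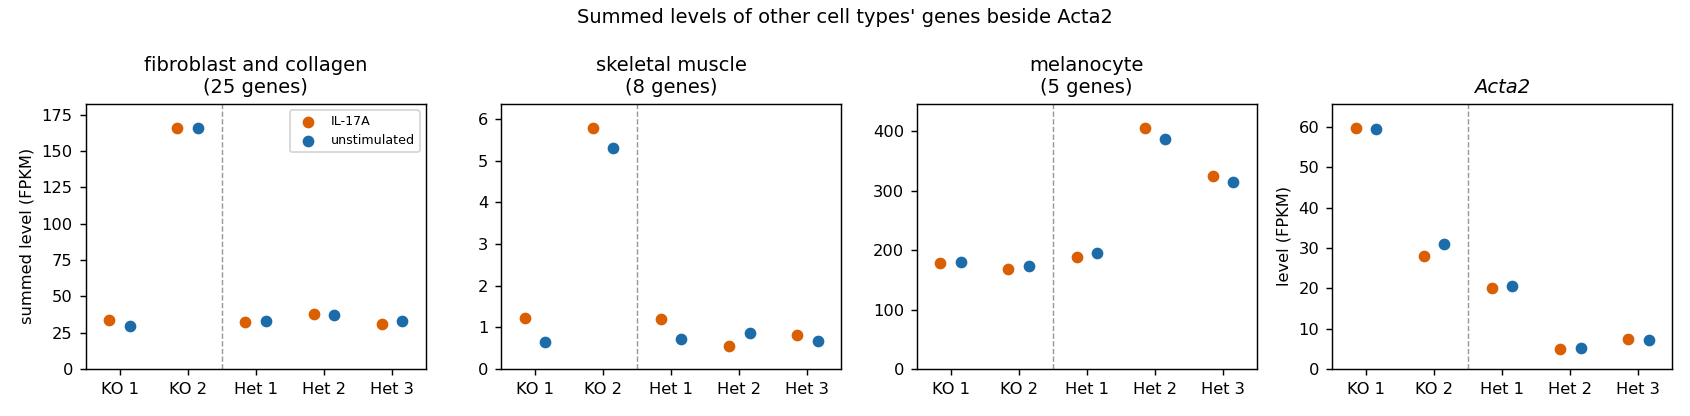
Summed level in FPKM of fibroblast and collagen genes, skeletal muscle markers and melanocyte markers in each library (first 3 panels), beside the level of Acta2 in FPKM (last panel), with IL-17A in orange and unstimulated in blue and all axes starting at 0. The fibroblast sum is 166 FPKM in knockout culture 2 and at most 37.6 FPKM elsewhere, while Acta2 is highest in knockout culture 1.

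IL-17A did not detectably change any of the 8 tested genes. In knockout libraries 0 of 8 passed an adjusted p of 0.05 (limma with mean-variance trend, Benjamini-Hochberg over 12054 genes), where 0.0249% of all tested genes did (0.0083% higher and 0.0166% lower). In heterozygous libraries the count was 0 of 8, beside 0.0083% of all, and the difference between the genotypes' responses gave 0 of 8, beside 0%. At an unadjusted p under 0.05 the counts were also 0 of 8 in each comparison, beside 176, 162 and 143 genes of the 12054. By chance 603 are expected, so this fit, which leaves out the culture pairing, called fewer than that. With culture as a random block the count among the tested genes of the set was again 0 of 8 in each comparison. Calls over all genes then numbered 14 in knockout, 15 in heterozygous and 5 for the difference. With culture as a fixed block they were 0 in each, and 607, 835 and 624 of all genes had an unadjusted p under 0.05. The adjusted p was 1 for every one of the 8 genes in both genotypes and 0.9997 for every difference in response, and the smallest unadjusted p was 0.578, for Tagln in knockout libraries.

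The fitted IL-17A changes were small. In knockout libraries they ran from -0.11 (Myl9) to 0.11 (Tagln) in log2(FPKM + 1), with standard errors of 0.18 to 0.80. In heterozygous libraries they ran from -0.16 (Igfbp2) to 0.09 (Fn1), with standard errors of 0.15 to 0.65. The standard errors are largest for Ly6a, Igfbp2 and Acta2, whose cultures differ most, and this spread limits the test for these genes. Within cultures, where that spread drops out, the 40 changes of 8 genes in 5 cultures were positive in 18 and negative in 22, and the largest was 0.52, for Myl9 in heterozygous culture 2 at 0.858 FPKM with IL-17A and 0.296 FPKM without. Acta2 changed by 0.01 in knockout culture 1, by -0.15 in knockout culture 2 and by -0.06 to 0.07 in the heterozygous cultures. Fn1 was higher with IL-17A in 4 of 5 cultures, by 0.06 to 0.21, and lower by 0.10 in knockout culture 2.

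**Figure D4:**
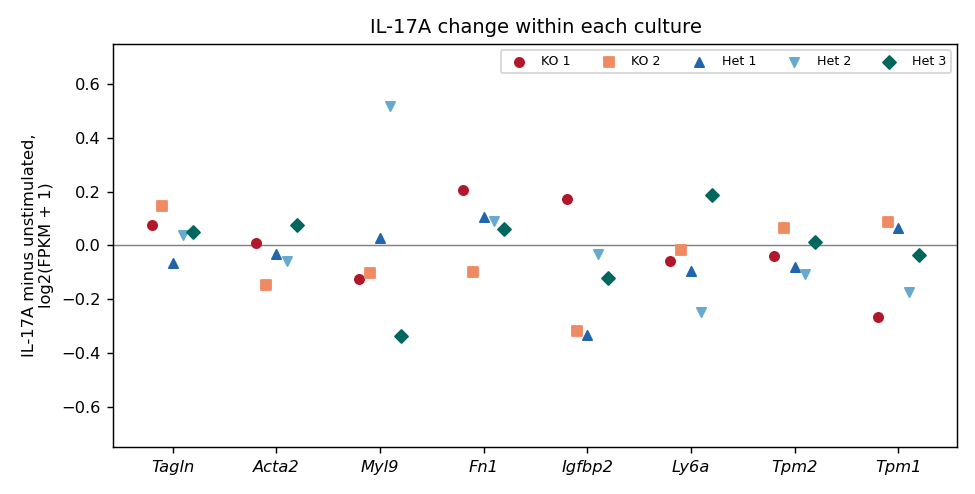
IL-17A minus unstimulated difference in log2(FPKM + 1) (vertical axis) of each of the 8 genes (horizontal axis), 1 symbol per culture. The symbols lie on both sides of 0 for each of the 8 genes, and the largest is 0.52 for Myl9 in heterozygous culture 2.

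Other genes of the same pathways and gene families, together with the cell type markers above, were read from 12 lists that leave out the 9 genes. Of 161 listed genes 94 were tested, and none passed in either genotype comparison (limma, adjusted p of 0.05). With IL-17A, 9 had higher and 6 lower levels in knockout at an unadjusted p under 0.05, and without stimulation 3 and 2. Over all tested genes, 3 (0.0249%) passed with IL-17A, all lower in knockout, and 0 (0%) without stimulation, with 981 and 562 at an unadjusted p under 0.05.

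Of the contractile list, 25 of 32 genes were tested and none passed. Their median log2 difference between knockout and heterozygous libraries was 0.21 with IL-17A and 0.16 without, beside -0.01 over all genes, and 18 and 19 of the 25 were positive. None of the 25 had all knockout libraries above all heterozygous ones (3.09% of all tested genes), whereas 13 of 25 had the libraries numbered 1 to 14 above those numbered 33 to 38 (17.4% of all). Among these 13 was Srf, the factor that binds the CArG box, with 27.2 to 31.2 FPKM in treated knockout libraries, 27.3 FPKM in the treated culture labelled heterozygous 1, and 15.6 and 18.2 FPKM in treated heterozygous cultures 2 and 3. Without the culture labelled heterozygous 1, 8 of the 25 were higher in knockout with IL-17A, beside 3.83% of all tested genes, among them Actn1, which crosslinks actin (log2 difference 0.69, adjusted p = 0.0416 by limma), Srf (0.76, adjusted p = 0.0310) and the SRF co-activator Mrtfa. In the same selection 0 of 25 were lower (2.87% of all). Without stimulation 0 of 25 were called in either direction, beside 0.382% of all genes higher and 0.664% lower. Genotype and library number coincide in that selection, so its calls cannot tell them apart. The most abundant genes of the list overlapped between the genotypes: Actb, the main non-muscle actin, had 1072 and 1449 FPKM in treated knockout and 786 to 1419 FPKM in treated heterozygous libraries, and Tpm4 had 631 and 672 FPKM in treated knockout and 656 to 742 FPKM in treated heterozygous libraries. Myocd, the co-activator of SRF in smooth muscle, was listed at 0 in all libraries.

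Fibronectin receptors and assembly factors gave 12 tested genes of 16, none past the threshold, with median log2 differences of 0.16 with IL-17A and 0.09 without. Among the 12, 1 was called without the culture labelled heterozygous 1, Tns1, which links integrins to actin and was higher with IL-17A (log2 difference 0.90, adjusted p = 0.0429 by limma), beside 3.83% of all tested genes. Itgb1, the integrin subunit shared by the main fibronectin receptors, had 344 and 354 FPKM in treated knockout and 304 to 387 FPKM in treated heterozygous libraries. Sdc1, a syndecan co-receptor, had 419 and 452 FPKM in treated knockout and 317 to 400 FPKM in treated heterozygous libraries. With IL-17A 14.8% of all tested genes had all knockout libraries above all heterozygous ones. Without stimulation Sdc1 did not, and its log2 difference was 0.09. Of 16 tested TGF-beta response genes none passed, and the medians were 0.22 with IL-17A and 0.15 without. Without the culture labelled heterozygous 1, 4 of the 16 were higher in treated knockout libraries, among them Thbs1, Tgfbr2 and Ltbp1. In that selection 2 were lower, Inhba and Smad7 (3.83% of all tested genes were higher and 2.87% lower). Inhba was also lower there without stimulation (log2 difference -1.08, adjusted p = 0.00528 by limma), beside 0.664% of all. The most abundant of the list were Ccn1, a matrix protein, with 165 and 197 FPKM in treated knockout and 137 to 213 FPKM in treated heterozygous libraries, and Thbs1, an activator of latent TGF-beta, with 148 and 167 FPKM in treated knockout and 49.8 to 163 FPKM in treated heterozygous libraries.

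The IGF list had 9 tested genes of 14 and no call, with median log2 differences of 0.32 with IL-17A and 0.14 without. Igfbp3, an IGF binding protein like Igfbp2, ran the other way, at 43.7 and 54.0 FPKM in treated knockout and 69.5 to 119 FPKM in treated heterozygous libraries, and without the culture labelled heterozygous 1 it was lower in knockout in both conditions, beside 2.87% of all tested genes with IL-17A and 0.664% without. In that selection Igf2r, the receptor that clears IGF2, was the other call of the list, higher with IL-17A (log2 difference 0.76, adjusted p = 0.0467 by limma), beside 3.83% of all. Igfbp7 had 183 and 202 FPKM in treated knockout and 117 to 165 FPKM in treated heterozygous libraries. Of the Ly6 family, 5 of 14 genes were tested with no call, and all 5 had positive differences in both conditions, with medians of 0.43 with IL-17A and 0.26 without. Ly6e had 148 and 154 FPKM in treated knockout and 71.6 to 130 FPKM in treated heterozygous libraries. Ly6d had 158 and 163 FPKM in treated knockout and 106 to 154 FPKM in treated heterozygous libraries. All knockout libraries were above all heterozygous ones in 14.8% of tested genes with IL-17A and 12.3% without. Ly6e was among them in both conditions, Ly6d only with IL-17A. Without the culture labelled heterozygous 1, 3 of these 5 were higher in treated knockout libraries (Ly6d, Ly6e and Lypd5), beside 3.83% of all tested genes.

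The fibroblast and collagen list had the largest median of the lists with 5 or more tested genes, 1.33 with IL-17A and 1.19 without, with all 10 tested genes positive and none past the threshold. Its high values came from knockout culture 2, in which all 10 were above the other 8 libraries (4.6% of all tested genes). Vim, an intermediate filament of mesenchymal cells, had 10.7 and 39.5 FPKM in treated knockout and 11.6 to 16.4 FPKM in treated heterozygous libraries. Sparc, a collagen-binding matrix protein, had 16.4 and 37.2 FPKM in treated knockout and 14.0 to 15.7 FPKM in treated heterozygous libraries. Without knockout culture 1, Col1a1, Col5a1, Col6a1 and Dcn were higher in knockout in both conditions, beside 0.0913% of all genes with IL-17A and 0.083% without, and none of the list was lower, beside 0.0415% and 0.0166%. Of the 9 genes of the set, Tagln alone had both libraries of knockout culture 2 above the other 8 libraries.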

How the data were processed

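A single table of FPKM values, deposited by the authors, covers the 10 libraries. Per the submitters' processing notes, HISAT2, SAMtools, StringTie and DESeq2 were used with build mm10; versions, roles, annotation and strand setting were not stated there. No count test was run, because FPKM is a normalised unit. Symbols and positions were taken from GENCODE M21 (GRCm38), which matched 32938 of 37991 identifiers. The 9 genes and the 12 lists were chosen with earlier results of these data known.

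Depth was estimated from the value that 1 fragment is worth, and 46.1% to 52.4% of low values lay within 0.05 of whole fragments, where chance gives 10%, too few to recover counts. The 12054 genes whose mean over the libraries reached 1 FPKM were tested on log2(FPKM + 1) with limma 3.58.1 and its mean-variance trend in R 4.3.3, with 1 mean for each of 4 groups, two-sided, and adjusted by Benjamini-Hochberg at 0.05. This scale understates changes of low genes. The fit was tested on simulated data with independent libraries. These held neither the culture pairing nor the split by library number, so the test does not cover them. Python 3.11.15 was used for the tables.

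Genes named beside the 9 were Bcl10, up to 4 called and the 2 most abundant tested genes of each list, defining cell type markers, and the 5 genes of most similar profile; others are named because of their values. Same-numbered libraries deviated together across genes within a genotype (r 0.227 in knockout, 0.607, 0.488 and 0.137 in heterozygous cultures 1, 2 and 3), so they were taken as pairs there. Across genotypes r was -0.155 to 0.0476, and they were not, except in the fixed block of the genotype comparisons. The alternatives were another pseudocount, filters, scaling, variance model, samples, blocks for culture or replicate number, and leaving out libraries or cultures.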

Additional observations from a re-analysis of the deposited data

How the results depend on the processing

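Across 13 alternatives and 10 fits without 1 library each, no IL-17A change of the 8 tested genes was called in knockout libraries, in heterozygous libraries or in their difference. With culture as a fixed or random replicate block (random correlation 0.669) the IL-17A counts were also 0 of 8. The genotype counts of the listed genes were also 0 with the random block of culture. They were 0 as well with a fixed block of replicate number shared across genotypes, a pairing that the correlations did not bear out. Over all 12054 genes, the random block gave 14, 15 and 5 IL-17A calls (knockout, heterozygous, difference), against 3, 1 and 0 without a block. The fixed block of culture gave 0 in each. The fixed block of replicate number left 0 of the 3 genotype calls with IL-17A. The 94 tested listed genes had 0 calls by label. Without the culture labelled heterozygous 1, genotype and library number coincide. In that selection 19 of the 94 were higher and 7 lower in knockout with IL-17A (3.83% and 2.87% of all tested genes). Without stimulation 4 were lower there (0.664%). Without knockout culture 1, 4 were higher with IL-17A (0.0913%) and 4 without (0.083%). The other alternatives and single-library omissions gave 0 for them. The median knockout minus heterozygous log2 difference of the set moved to 0.41 with IL-17A and 0.31 without stimulation in libraries numbered 1 to 14. With a pseudocount of 0.1, Myl9 was 1.87 with IL-17A and 2.22 without. Myl9 has no value with a filter of 5 FPKM. The only sign change among the genotype differences was that of Tpm1 with IL-17A. The causes were not tested. With 2 knockout cultures, and 1 heterozygous culture whose Bcl10 level goes against its label, the design limits every genotype statement, and Cnn1 could not be read at this depth.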
